A study of Mus musculus with 16 samples.

Results

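The genes described here encode the transcription factor subunits of NF-κB and inhibitors that NF-κB switches on to restrain itself. They also encode the nuclear IκB family protein IκBζ and ABIN-3, a protein that binds the inhibitor A20. They were named by role: the subunit genes Nfkb1, Nfkb2, Rel, Rela and Relb, the IκB family genes Nfkbia, Nfkbie and Nfkbiz, and the A20 and ABIN-3 genes Tnfaip3 and Tnip3. Of these 10 genes, 9 had a probe set that the array annotation assigns to that gene alone, 1 probe set each, and all 9 passed the filter on dim probe sets and so stand among the 10236 genes tested. Nfkb1 is not analysed here. Transcript levels were measured on Affymetrix arrays in bone marrow-derived dendritic cells from 4 C57BL/6 mice. Marrow cells were grown with GM-CSF at 10 ng/mL, in medium of 290 mOsm/L throughout or in medium raised to 450 mOsm/L with NaCl from day 3. Cells harvested on day 7 were plated for 6 h with or without lipopolysaccharide (LPS, a bacterial cell wall component) at 10 ng/mL, and each of the 4 mice supplied 1 array to each of the 4 resulting groups. Values are log2 expression values, so a difference of 1 is a 2-fold change.

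In resting cells NF-κB dimers are held in the cytoplasm by IκB proteins. LPS binding to its receptor TLR4 activates the IκB kinase (IKK) complex, which marks IκB for destruction and lets the dimers enter the nucleus. Among the genes NF-κB then transcribes are those of its own subunits and of its inhibitors, so that the pathway both amplifies and limits its response. Myeloid cells use this circuit to time the production of cytokines such as TNF and IL-6.

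Promoter sequences of 7 of the 9 measured genes were found in a RefSeq table of mouse build GRCm38.p6, which gives 250 bases before and 50 after each start site; Relb and Nfkbiz are named only. These 7 genes have 10 listed promoters, which were searched on both strands for the κB consensus decamer. The decamer occurred in 8 of the 10 promoters and in 6 of the 7 genes, against 8.459% of all 32851 promoters in the table and 9.55% of its 27025 genes. The 130 bases before the start site are shown for 5 promoters, on the gene's own strand and with decamer matches in capitals. They are those of 1 subunit gene with matches, the subunit gene without any, and the 3 other genes whose response to salt or LPS is described in most detail. The decamer occurs within this 130-base stretch in 3.936% of all promoters.
Nfkb2, promoter 1, chr19:46304607-46304736, plus strand: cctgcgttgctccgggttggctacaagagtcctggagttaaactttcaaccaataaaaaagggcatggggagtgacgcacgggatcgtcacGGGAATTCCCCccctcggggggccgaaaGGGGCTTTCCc
Rela, chr19:5637411-5637540, plus strand: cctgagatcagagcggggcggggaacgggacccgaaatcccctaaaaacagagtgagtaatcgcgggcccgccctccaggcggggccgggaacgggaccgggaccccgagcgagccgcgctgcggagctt
Nfkbia, chr12:55492648-55492777, minus strand: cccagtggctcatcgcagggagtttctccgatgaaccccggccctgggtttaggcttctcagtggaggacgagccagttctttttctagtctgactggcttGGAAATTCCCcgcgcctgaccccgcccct
Tnfaip3, promoter 1, chr10:19015411-19015540, minus strand: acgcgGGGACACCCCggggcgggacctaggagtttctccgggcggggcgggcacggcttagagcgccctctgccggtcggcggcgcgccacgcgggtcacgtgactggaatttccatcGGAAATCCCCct
Tnip3, chr6:65590268-65590397, plus strand: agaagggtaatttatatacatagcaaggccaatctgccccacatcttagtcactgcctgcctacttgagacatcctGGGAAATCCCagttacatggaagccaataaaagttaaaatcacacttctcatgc
The capitals in Nfkb2 mark a run of overlapping matches on both strands that starts 39 bases before the start site and a further match that starts 11 bases before it. Nfkbia held 1 match, 29 bases before the start site, and Tnip3 held a match to both strands 54 bases before it. In Tnfaip3 the matches start 125 and 12 bases before the start site. Of the promoters not printed, Rel held matches 92 and 91 bases before its start site and Nfkbie 1 match 106 bases before. Promoters 2 and 3 of Nfkb2 overlap and share 1 match, which lies 10 bases after the one start and 225 before the other and is counted in both promoters. These matches describe sequence only; binding was not measured.

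The arrays agreed closely within groups, with median correlations between 0.990 and 0.996. Of 16 dendritic cell markers, 12 had a mean above the median of all values, 6.83, in resting cells at 290 mOsm/L, among them the antigen presentation genes Cd74 (13.60) and H2-Aa (13.29) and the integrin gene Itgax (12.13). The dendritic cell markers Flt3, Zbtb46, Xcr1 and Cd209a had means under that level there. All 12 macrophage markers were above it in every group. Neutrophil markers separated the osmolarities: the mean over 16 such genes ran from 9.59 to 10.09 at 290 mOsm/L and from 6.96 to 7.09 at 450 mOsm/L without LPS, and from 9.73 to 10.14 against 7.66 to 7.87 with LPS. The mean over 10 mast cell and basophil markers ran from 6.48 to 7.01 against 5.79 to 5.92 without LPS, and from 7.02 to 7.59 against 6.33 to 6.42 with LPS. The 12 macrophage markers averaged 11.54 to 11.61 against 11.26 to 11.36 without LPS, and 11.84 to 11.89 against 11.40 to 11.52 with LPS. The 6 monocyte markers averaged 9.19 to 9.38 against 9.18 to 9.59 without LPS, and 10.09 to 10.34 against 9.28 to 9.54 with LPS. In RNA from whole cultures, fewer cells of a type and less RNA per cell cannot be told apart.

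LPS raised all 9 NF-κB genes in cells grown at 290 mOsm/L, by 1.68-fold to 8.34-fold, each in 4 of 4 mice and with no overlap between groups. Across all 10236 genes, 26.4% were higher with LPS at an adjusted p under 0.05 (limma, Benjamini-Hochberg) and 24.5% were higher without overlap. The median log2 difference was 1.51 over the 9 genes and -0.11 over all genes.

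Among the subunits, Nfkb2, which encodes the p100 precursor that is processed to p52, had the largest rise. Its values were 9.16, 9.42, 8.86 and 9.38 in mice 1 to 4 without LPS and 11.19, 11.28, 11.11 and 11.27 with it. The rise was 4.01-fold (2.00 ± 0.09 log2, SE; adjusted p = 8.61e-13). Rel, which encodes c-Rel, a subunit prominent in activated myeloid and lymphoid cells, moved from between 10.25 and 10.55 to between 11.63 and 11.76, a rise of 2.42-fold (1.28 ± 0.06). Relb, the partner of p52 in the non-canonical pathway, read 8.44, 8.50, 8.23 and 8.61 without LPS and 9.80, 9.69, 9.74 and 9.68 with it. That is a rise of 2.43-fold (1.28 ± 0.08), close to the value for Rel. Rela, which encodes p65, the main activating subunit, rose least: from between 9.67 and 10.06 to between 10.51 and 10.74, or 1.68-fold (0.75 ± 0.07; adjusted p = 2.27e-08).

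The IκB genes rose too. Nfkbiz, whose product IκBζ acts in the nucleus and is needed for induction of genes such as Il6, had the largest difference of the 9 genes. It stood at 6.96, 7.25, 6.79 and 7.17 without LPS, near the median of all values, and at 9.97, 10.14, 10.11 and 10.20 with LPS. The rise was 8.34-fold (3.06 ± 0.10; adjusted p = 5.02e-15), and folds of dim genes are understated on these arrays. Nfkbia encodes IκBα, the inhibitor that is degraded and resynthesised within each wave of activation. Its values were 10.74, 11.08, 10.51 and 11.02 without LPS and 12.48, 12.46, 12.49 and 12.54 with it, a rise of 3.14-fold (1.65 ± 0.09; adjusted p = 8.28e-12). Nfkbie, encoding the slower inhibitor IκBε, read 9.16, 9.64, 8.85 and 9.49 without LPS and between 10.77 and 10.83 with it, a rise of 2.85-fold (1.51 ± 0.11). The 4 mice differed widely in Nfkbie before LPS and very little after it.

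Tnfaip3 encodes A20, which edits ubiquitin chains on signalling proteins upstream of IKK. At 290 mOsm/L its values were 9.75, 10.12, 9.56 and 10.16 without LPS and 11.64, 11.74, 11.64 and 11.86 with it. The rise was 3.52-fold (1.82 ± 0.10; adjusted p = 1.47e-11). Tnip3 encodes ABIN-3, a protein that binds A20. It moved from 11.22, 11.46, 10.89 and 11.25 to 12.27, 12.26, 11.95 and 12.08, a rise of 1.91-fold (0.94 ± 0.10; adjusted p = 8.83e-08).

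**Figure D1:**
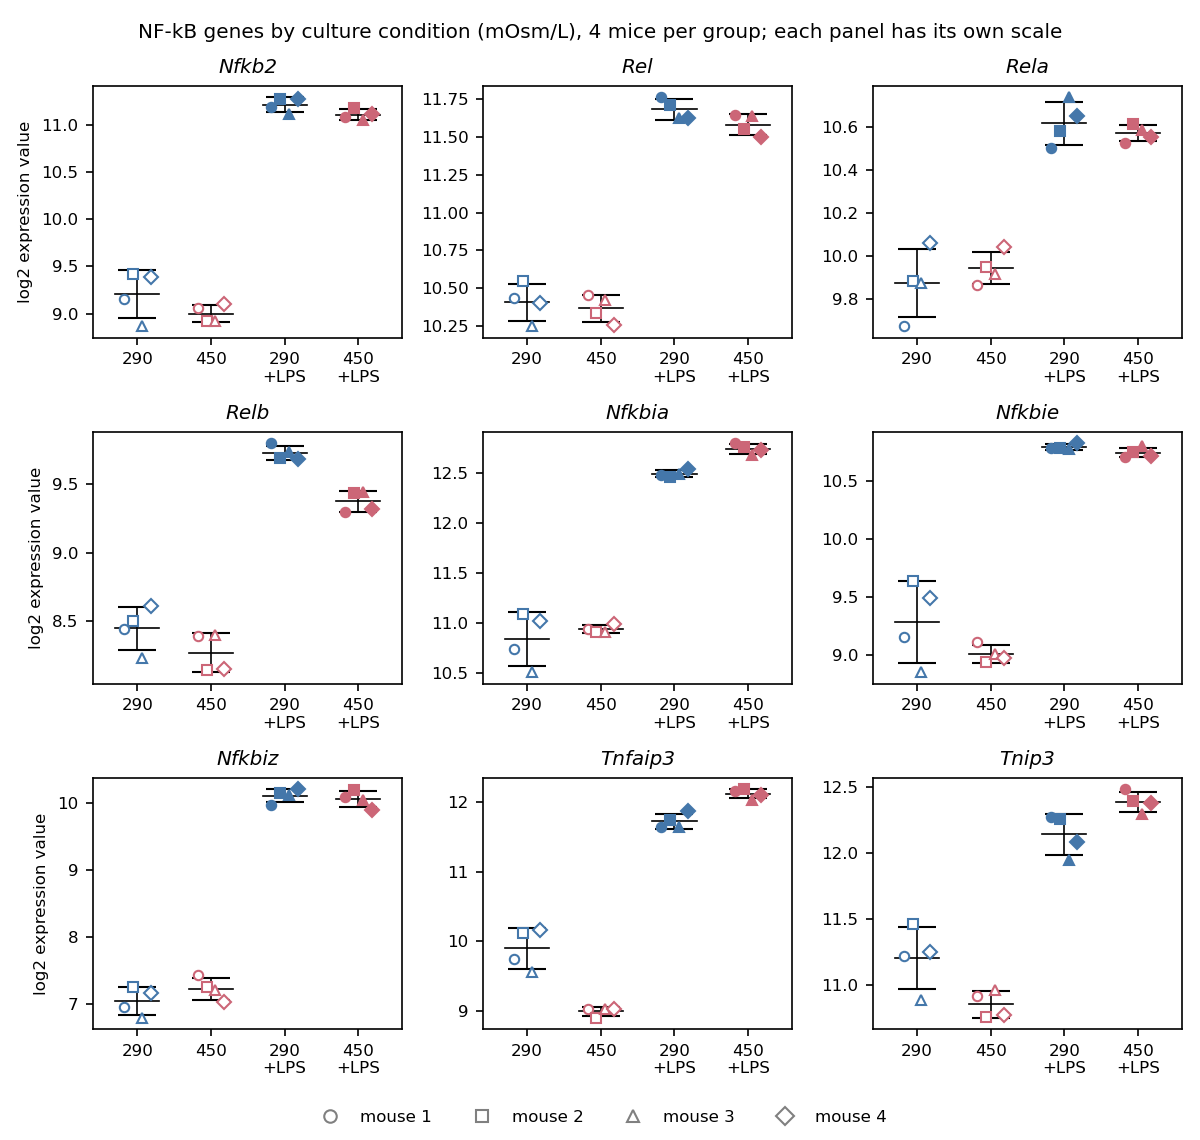
Log2 expression values (vertical axis, a separate scale in each panel) of the 9 NF-κB genes in the 4 culture conditions (horizontal axis, osmolarity in mOsm/L without or with LPS). Each symbol is 1 mouse, open without LPS and filled with it, long bars are means and whiskers SD over 4 mice. Every gene stood higher with LPS, and the resting values spread most at 290 mOsm/L.

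At 450 mOsm/L LPS again raised all 9 genes, in 4 of 4 mice and without overlap, against 26.4% of all genes higher by the test and 24.4% higher without overlap. The median log2 difference was 1.74, against -0.09 over all genes. The subunit genes rose 4.30-fold (Nfkb2), 2.32-fold (Rel), 2.15-fold (Relb) and 1.55-fold (Rela). Among the IκB family genes Nfkbiz rose 7.07-fold (2.82 ± 0.10), Nfkbia 3.49-fold (1.80 ± 0.09) and Nfkbie 3.33-fold (1.74 ± 0.11). Tnfaip3 had the largest rise here. It went from 9.02, 8.90, 9.02 and 9.03 to 12.16, 12.18, 12.03 and 12.10, which is 8.71-fold (3.12 ± 0.10; adjusted p = 8.74e-15). Tnip3 went from 10.92, 10.76, 10.96 and 10.77 to 12.48, 12.39, 12.29 and 12.38, or 2.89-fold (1.53 ± 0.10; adjusted p = 8.96e-11).

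**Figure D2:**
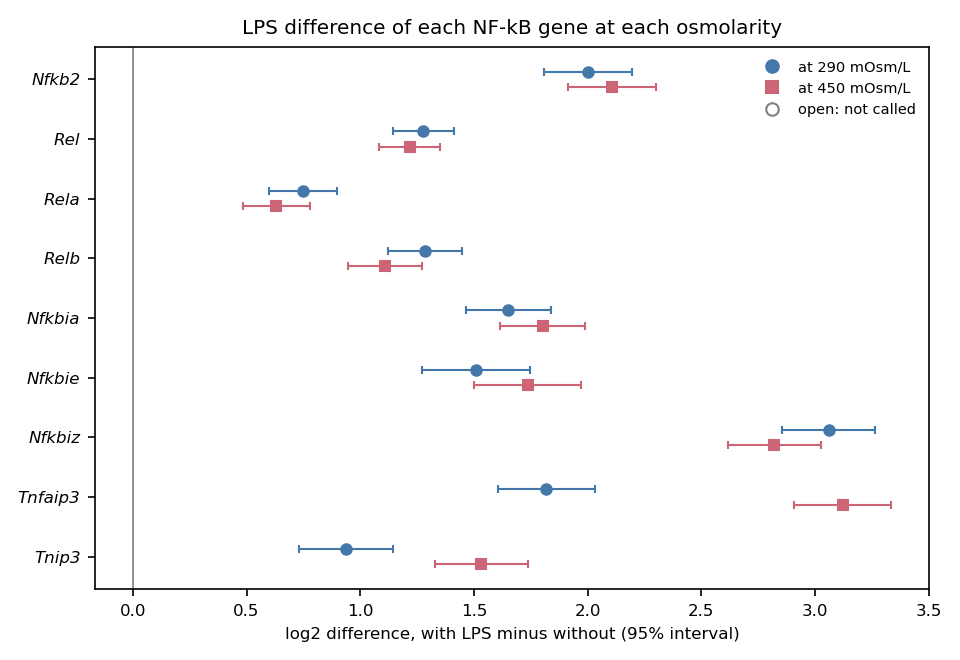
Log2 difference between cells with and without LPS (horizontal axis) for each NF-κB gene (vertical axis), with 95% intervals from the fit over all genes, not adjusted for multiple testing; circles are 290 mOsm/L and squares 450 mOsm/L. The intervals at the 2 osmolarities separate for Tnfaip3 (1.82 and 3.12) and Tnip3 (0.94 and 1.53).

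In resting cells, high salt lowered Tnfaip3 and Tnip3, and the 4 subunit genes measured and 3 IκB genes did not pass the test. The count of 2 of 9 genes lower compares with 23.7% of all genes, and 1 of 9 was lower without overlap, against 20.4% of all genes. By limma 0 of 9 were higher, also 0 at an unadjusted p under 0.05, against 20.6% of all genes. Tnfaip3 read 8.90 to 9.03 at 450 mOsm/L against 9.56 to 10.16 at 290 mOsm/L, so the groups did not overlap. It fell 1.87-fold (-0.91 ± 0.10; adjusted p = 1.65e-06) and was lower in 4 of 4 mice, by 0.54 to 1.22 on the log2 scale. Tnip3 fell 1.27-fold (-0.35 ± 0.10; adjusted p = 0.00818), lower in 3 of 4 mice with overlapping groups. Without mouse 2 its adjusted p was 0.104 and without mouse 4 it was 0.0734. Tnip3 passed with the resting groups fitted alone. The SDs at 290 mOsm/L without LPS were 0.29 (Tnfaip3) and 0.24 (Tnip3), against 0.063 and 0.10 at 450 mOsm/L. The main fit takes 1 estimate of the spread for every group, which is under those at 290 mOsm/L. Its p-values for comparisons that use that group can thus be too small.

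None of the other 7 genes passed, and the largest mean difference among them was -0.275 log2, in Nfkbie. Nfkb2 differed by -0.21 (95% interval -0.40 to -0.01, adjusted p = 0.0757), Relb by -0.18 (-0.34 to -0.01, 0.0733) and Nfkbie by -0.27 (-0.51 to -0.04, 0.0546). These 3 genes were lower in 3 of 4 mice, the exception being mouse 3. Taking the mouse as a replicate block gave Nfkb2 an adjusted p of 0.0318, and the mouse as a random term gave Nfkbie 0.0474. Without the array of mouse 3 at 290 mOsm/L all 3 passed, with differences of -0.32 (Nfkb2, adjusted p = 0.00172), -0.25 (Relb, 0.0115) and -0.42 (Nfkbie, 0.000719). Relb also passed without the array of mouse 1 (0.0412) or mouse 3 (0.0386) at 450 mOsm/L. Nfkbiz differed by 0.19 (-0.02 to 0.39), and passed without mouse 4 (adjusted p = 0.0373) or without the array of mouse 2 at 290 mOsm/L (0.0489). Intervals for the remaining genes were -0.17 to 0.10 (Rel), -0.08 to 0.22 (Rela) and -0.09 to 0.28 (Nfkbia).

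With LPS, high salt raised Tnfaip3 and Nfkbia and lowered Relb. Of the 9 genes 2 were higher and 1 lower, against 16.8% and 21.8% of all genes by the test, and 3 were higher and 1 lower without overlap, against 17.1% and 22.3%. Relb was at 9.30, 9.44, 9.45 and 9.32 at 450 mOsm/L with LPS, all under the lowest value at 290 mOsm/L with LPS, 9.68. It fell 1.28-fold (-0.35 ± 0.08; adjusted p = 0.00152) and was lower in 4 of 4 mice. Tnfaip3 rose 1.32-fold (0.40 ± 0.10; adjusted p = 0.0047), from between 11.64 and 11.86 to between 12.03 and 12.18, higher in 4 of 4 mice. It was thus below the 290 mOsm/L cultures without LPS and above them with LPS.

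Nfkbia was at 12.79, 12.76, 12.68 and 12.72, above every value at 290 mOsm/L with LPS. The difference was 1.19-fold (0.25 ± 0.09; adjusted p = 0.0335), higher in 4 of 4 mice. It did not pass in 11 of 31 alternative settings, where its adjusted p reached 0.151 without mouse 1, and was 0.0880 without mouse 2 and 0.0613 without mouse 4. Leaving out single arrays with LPS gave 0.0652, 0.0701 and 0.0608 for mice 1, 2 and 3 at 290 mOsm/L, and 0.0808, 0.0634 and 0.0564 for mice 1, 2 and 4 at 450 mOsm/L. The lowest adjusted p of Nfkbia over the 31 settings was 0.00138. Its SD was 0.035 at 290 and 0.050 at 450 mOsm/L with LPS, but 0.27 at 290 mOsm/L without LPS. The main fit shares 1 estimate of the spread over all 4 groups. Tnip3 differed by 0.25 ± 0.10, in 4 of 4 mice and without overlap, with an adjusted p of 0.0549. With the mouse as a replicate block that p was 0.0350, and with the LPS groups fitted alone it was 0.0226. It was under 0.05 in 11 of 31 settings. The differences of Nfkb2 (95% interval -0.30 to 0.09), Rel (-0.23 to 0.04), Rela (-0.20 to 0.10), Nfkbie (-0.28 to 0.19) and Nfkbiz (-0.26 to 0.15) did not pass.

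The neutrophil markers moved with salt in both comparisons: 15 of 16 were lower without LPS and 13 of 16 with LPS. Of all genes 23.7% were lower and 20.6% higher at high salt without LPS, and 21.8% lower and 16.8% higher with LPS. These shares apply to each marker count that follows. At 450 mOsm/L the means of 9 of the 16 lay under the median of all values without LPS and of 8 with LPS. Ngp, a neutrophil granule gene, averaged 6.27 at 450 mOsm/L and 12.29 at 290 mOsm/L without LPS. All 6 tested mast cell and basophil markers were lower without LPS, and 3 were lower and 1 higher with LPS. The listed Ms4a2, Fcer1a, Cma1 and Tpsb2 were too dim to be tested. Without LPS, Ms4a2 and Fcer1a averaged lower at 450 than at 290 mOsm/L, and Cma1 and Tpsb2 higher. Cpa3 and Mcpt8 passed the filter through the 290 mOsm/L arrays alone, as did neutrophil markers such as Ltf, Ly6g, Cxcr2 and Retnlg. For such genes the filter favours a lower value at high salt. Of the 12 tested macrophage markers 6 were lower and 2 higher without LPS, and 8 lower with LPS. Of the 6 tested monocyte markers 2 were lower and 2 higher without LPS, near the shares of all genes, and 3 lower and 1 higher with LPS. Of the 14 tested dendritic cell markers 2 were lower and 3 higher without LPS, and 3 lower and 4 higher with LPS. The interaction, described next, was negative in 4 of the 6 monocyte markers, in 1 macrophage marker and in 3 of the 14 dendritic cell markers. It was positive in 4 and negative in 1 of the 16 neutrophil markers, and positive in 2 of the 6 mast cell and basophil markers. Of all genes it was positive in 10.7% and negative in 10.4%. The part of these cell types in the salt differences and interactions of Tnfaip3, Tnip3, Relb and Nfkbia was not tested.

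**Figure D3:**
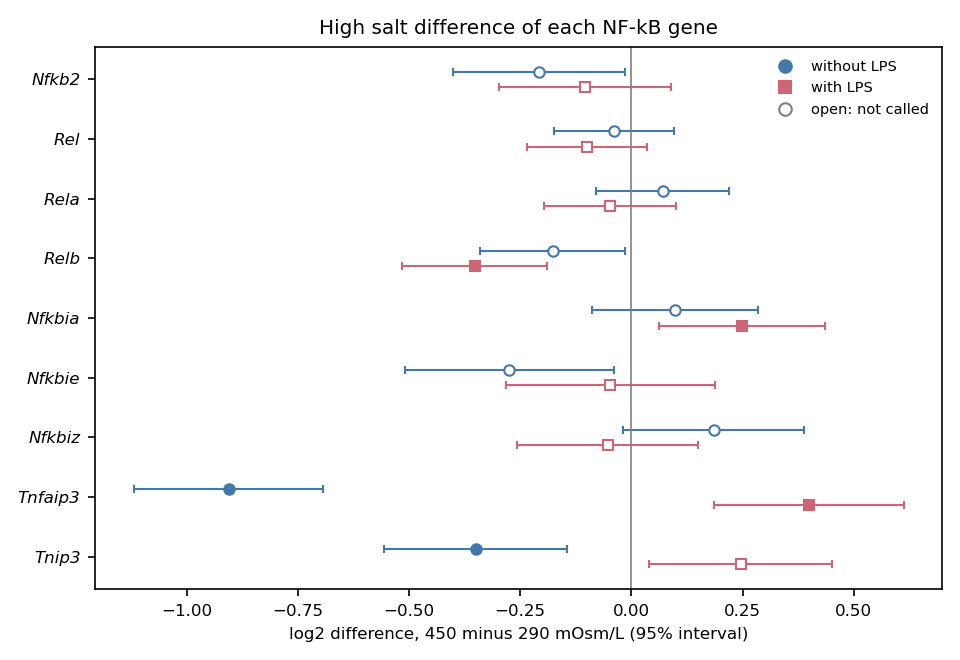
Log2 difference between 450 and 290 mOsm/L (horizontal axis) for each NF-κB gene (vertical axis) with 95% intervals, not adjusted for multiple testing; circles are cells without LPS and squares cells with LPS, filled where the adjusted p was under 0.05. Tnfaip3 lies at -0.91 without LPS and 0.40 with LPS, and Tnip3 at -0.35 and 0.25.

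Whether salt altered the LPS response itself was tested by the interaction, the LPS difference at 450 mOsm/L minus that at 290 mOsm/L. It passed for Tnfaip3 and Tnip3, 2 of 9 genes, where 10.7% of all genes had a larger LPS difference at 450 mOsm/L and 10.4% a smaller one. The LPS fold of Tnfaip3 was 2.47 times as large at 450 mOsm/L (95% interval 2.00 to 3.05; 1.30 ± 0.14 log2, adjusted p = 4.11e-06). In mice 1 to 4 the interaction was 1.25, 1.66, 0.93 and 1.37. The LPS fold of Tnip3 was 1.51 times as large (0.60 ± 0.14; adjusted p = 0.00433), in 4 of 4 mice, and its adjusted p was 0.0543 without mouse 4. All 31 settings gave Tnfaip3 the same calls in each comparison in which they could be fitted.

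For the other 7 genes the interaction did not pass, which leaves differences up to the ends of the following 95% intervals. They were -0.17 to 0.38 for Nfkb2, -0.25 to 0.13 for Rel, -0.33 to 0.09 for Rela and -0.41 to 0.05 for Relb. Among the IκB genes they were -0.11 to 0.41 for Nfkbia, -0.11 to 0.56 for Nfkbie and -0.53 to 0.05 for Nfkbiz. Nfkbie passed without the array of mouse 3 at 290 mOsm/L (0.37, adjusted p = 0.0252). The 4 simple comparisons share groups with each other and with the interaction, so their results are not independent.

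The order of the 4 conditions differed by gene. Tnfaip3 ran from 450 mOsm/L to 290 mOsm/L without LPS, then 290 mOsm/L and 450 mOsm/L with LPS, and each step passed its test. Tnip3 had the same order, and its last step did not pass. Relb was lowest at 450 mOsm/L without LPS and highest at 290 mOsm/L with LPS, with the resting groups not separated. Nfkbia was highest at 450 mOsm/L with LPS, again with the resting groups not separated. In Nfkb2, Rel, Rela, Nfkbie and Nfkbiz the presence of LPS was the only step that passed.

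The 4 mice differed most before stimulation at normal osmolarity. In that group all 9 genes had their largest SD, with a median of 0.237 over the 9 genes and 0.0826 over all genes, and 22.0% of all genes had their largest SD there. In the other 3 groups the median SD of the 9 genes was between 0.0663 and 0.0903. Mouse 3 was the lowest of the 4 mice in 8 of the 9 genes at 290 mOsm/L without LPS, where it was lowest in 26.6% of all genes; the exception was Rela. Mouse 2 was highest in 6 of the 9 and mouse 4 in 3. Of all genes in that group mouse 1 was highest in 32.1%, mouse 2 in 16.3%, mouse 3 in 23.5% and mouse 4 in 28.2%. The spread was widest in Nfkbie (SD 0.35), Tnfaip3 (0.29), Nfkbia (0.27) and Nfkb2 (0.26), and smallest in Rel (0.12). Of 30 tested NF-κB target genes mouse 3 was lowest in 24, while mouse 1 was highest in 10, mouse 2 in 9, mouse 4 in 9 and mouse 3 in 2. The mean of mouse 3 over 33 target genes on the array was 8.28 against 8.56, 8.62 and 8.60 in mice 1, 2 and 4. The neutrophil list averaged 9.61, 9.59, 9.79 and 10.09 in mice 1 to 4 of that group, the monocyte list 9.26, 9.38, 9.19 and 9.37, the dendritic cell list 9.56, 9.48, 9.45 and 9.50, and the macrophage list 11.60, 11.57, 11.61 and 11.54. Mouse 3 was lowest in the monocyte and dendritic cell lists, and the part of these cell types in the spread was not tested. These counts describe 4 cultures and were not tested.

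**Figure D4:**
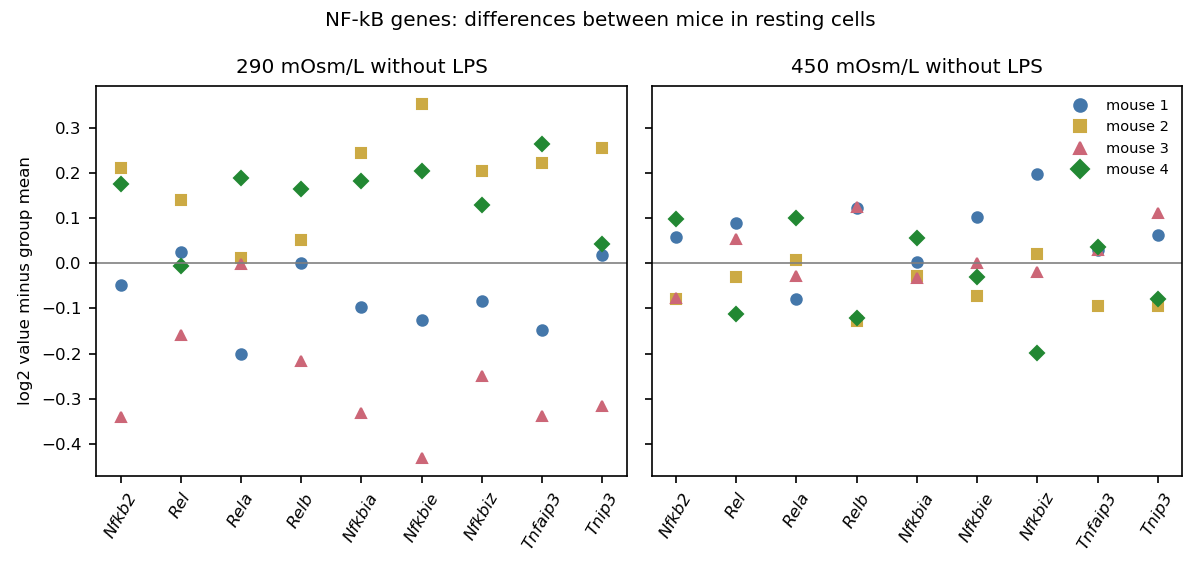
Log2 value minus the group mean (vertical axis) of each NF-κB gene (horizontal axis) in unstimulated cells at 290 mOsm/L (left) and 450 mOsm/L (right); each symbol is 1 mouse. On the left mouse 3 is the lowest in 8 of 9 genes; on the right the SD of every gene is smaller.

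The genes that carry the signal to NF-κB shared its response to LPS in part. Of 13 tested genes of the IKK complex, its activating kinases and its adaptors, 9 rose and 3 fell at 290 mOsm/L (median 0.56) and 10 rose and 3 fell at 450 mOsm/L (median 0.73). Of all genes 26.4% rose at either osmolarity, 47.1% fell at 290 mOsm/L and 45.3% fell at 450 mOsm/L. At 290 mOsm/L Ikbke, an IKK-related kinase, rose by 1.40 ± 0.06 log2, Map3k8, which acts beside IKK in TLR signalling, by 1.39 ± 0.06 and the TLR adaptor gene Myd88 by 1.39 ± 0.07. The receptor-associated kinase gene Irak1 fell by 0.77 at 450 mOsm/L (-0.77 ± 0.05). The core genes Ikbkb and Ikbkg rose by 0.55 ± 0.05 and 0.56 ± 0.06 at 290 mOsm/L; these were chosen after their values were seen. In resting cells high salt raised 5 of the 13, among them Ikbke (0.44 ± 0.06) and Map3k8 (0.38 ± 0.06), and lowered 2, Ikbkg (-0.38 ± 0.06) and the adaptor gene Tab3 (-0.26 ± 0.06), where 20.6% of all genes were higher and 23.7% lower. The LPS difference of Ikbke was smaller at 450 mOsm/L by 0.53 (-0.53 ± 0.08, adjusted p = 0.00018) and that of Map3k8 by 0.51 (-0.51 ± 0.08, adjusted p = 0.00021), the opposite sign to Tnfaip3. The count raised by salt in resting cells was 2 without mouse 1, without mouse 2 or without the array of mouse 1 at 450 mOsm/L, and 3 without any of 3 other arrays, those of mouse 2 at 290 mOsm/L and of mice 2 and 4 at 450 mOsm/L. With LPS 2 of the 13 were higher and 2 lower at high salt, shares near the 16.8% and 21.8% of all genes. The count higher was 1 without mouse 1, without mouse 3, without the array of mouse 3 at 290 mOsm/L or without those of mouse 1 or 3 at 450 mOsm/L, all with LPS, and 4 with quantile normalization or cyclic loess. The count lower was 1 without mouse 4.

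Other brakes on the pathway moved both ways. Of 15 tested, 10 rose and 3 fell with LPS at 290 mOsm/L (median 0.36), and 10 rose and 3 fell at 450 mOsm/L (median 0.56), against 26.4% of all genes higher and 47.1% or 45.3% lower. The 3 that fell at 450 mOsm/L were 5 without the array of mouse 3 in that group with LPS. Zc3h12a, an RNase that degrades cytokine transcripts, rose by 1.69 ± 0.07 and 2.02 ± 0.07 in turn, and Irak3, encoding an inhibitory member of the IRAK family, by 1.34 ± 0.07 at 290 mOsm/L. Tnip1, which encodes the A20-binding protein ABIN-1 and so is a relative of Tnip3, rose by 1.67 ± 0.08 at 450 mOsm/L. Itch, a ubiquitin ligase that works with A20, fell by 1.07 at 450 mOsm/L (-1.07 ± 0.06). In resting cells high salt raised 4 of the 15, Irak3 (0.45 ± 0.07), Itch (0.38 ± 0.06), Tank (0.38 ± 0.07) and Usp21 (0.26 ± 0.05), and lowered 4, near the 20.6% and 23.7% of all genes. That last count was 2 without mouse 1, without mouse 4 or without the array of mouse 4 at 450 mOsm/L, and 1 without mouse 2. With LPS high salt raised 4, among them the A20-like deubiquitinase gene Otud7b (0.53 ± 0.05) and the A20 adaptor gene Tax1bp1 (0.35 ± 0.06), and lowered 1, against 16.8% and 21.8%. The count lowered was 0 without mouse 1, 2 or 4, without the array of mouse 4 at 290 mOsm/L or without those of mouse 1 or 2 at 450 mOsm/L with LPS. It was 2 without the array of mouse 4 at 450 mOsm/L without LPS. The interaction was positive in 4 and negative in 5 of these brakes, against 10.7% and 10.4% of all genes. The 5 were 2 without mouse 1 and 3 without mouse 2.

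The other IκB genes, 4 in number, all passed the test for LPS at 290 mOsm/L, with 3 higher and 1 lower, against 26.4% and 47.1% of all genes. The 1 lower, Nfkbid (-0.26 ± 0.08), did not pass without mouse 2. Nfkbib, encoding IκBβ, rose by 1.97 ± 0.06 and by 2.07 ± 0.06 at 450 mOsm/L, and Bcl3, a nuclear IκB protein, by 1.08 ± 0.08 and 1.47 ± 0.08. With LPS both were higher at 450 than at 290 mOsm/L, Bcl3 by 0.36 ± 0.08 and Nfkbib by 0.25 ± 0.06, as was Nfkbia. In resting cells 1 of the 4 was higher and 1, Nfkbid (-0.21 ± 0.08), lower at high salt, close to the 20.6% and 23.7% of all genes. The count lower was 0 in 12 of 31 settings, among them without mouse 1, without mouse 2, without the arrays of mouse 1, 2 or 4 at 290 mOsm/L and without those of mouse 1, 2 or 3 at 450 mOsm/L. The count higher was 2 without mouse 4 or without its array at 290 mOsm/L. The interaction passed for 1, Bcl3, against 10.7% of all genes, and did not pass without mouse 2, without mouse 4, without their arrays at 290 mOsm/L without LPS or without the array of mouse 2 at 450 mOsm/L with LPS. Of 3 genes of the linear ubiquitin ligase complex, 2 rose with LPS at 290 mOsm/L, and 1 rose and 1 fell at 450 mOsm/L. Of all genes 26.4% rose at either osmolarity and 45.3% fell at 450 mOsm/L. Rnf31, its catalytic subunit gene, rose by 1.68 ± 0.07 and 1.53 ± 0.07. Rbck1 rose by 0.16 ± 0.05 at 290 mOsm/L and Sharpin fell at 450 mOsm/L (-0.14 ± 0.05), and neither passed without mouse 1 or without mouse 2. Of 8 non-canonical pathway genes 6 rose and 1 fell with LPS at 290 mOsm/L (median 0.97), and 7 rose and 1 fell at 450 mOsm/L (median 1.01), against the same 26.4% higher and 47.1% or 45.3% lower. The 1 that fell at 450 mOsm/L did not pass without mouse 1, without mouse 4 or without the array of mouse 1 at 450 mOsm/L without LPS. The receptor gene Cd40, which feeds the pathway that Relb and p52 serve, rose 39.7-fold (5.31 ± 0.07) and 31.1-fold (4.96 ± 0.07). In resting cells Tnfrsf11a, the receptor RANK, fell with salt by 0.76 (-0.76 ± 0.06), and 3 of the 8 were higher, against 20.6% of all genes. That count was 0 without the array of mouse 3 at 290 mOsm/L, and 1 without mouse 1, 2 or 3, without the array of mouse 2 at 290 mOsm/L or without that of mouse 1 at 450 mOsm/L.

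Textbook NF-κB target genes rose with LPS almost throughout, 27 of 30 at 290 mOsm/L and 29 of 30 at 450 mOsm/L, with Myc lower in both (-1.94 ± 0.10 and -1.37 ± 0.10). Of all genes 26.4% rose at either osmolarity. The median difference was 2.15 and 2.75. Il6 averaged 4.26 at 290 and 4.60 at 450 mOsm/L without LPS, and 11.89 and 12.36 with LPS. Nos2, the inducible nitric oxide synthase, averaged 6.26 and 6.74 without LPS and 12.50 and 13.24 with it. The resting means of both genes lie under 6.83, the median of all values, so no fold is given. Il6, Nos2 and Il12b would not have passed the filter without their LPS arrays, which favours a rise in the counts and medians above. The listed targets Bcl2a1b, Csf2, Csf3 and Il23a were not tested. In resting cells high salt lowered 14 and raised 8 of the 30 (median -0.30), where 23.7% and 20.6% of all genes were lower and higher. The chemokine gene Ccl2 fell 3.23-fold (-1.69 ± 0.14) and the growth factor gene Csf1 2.67-fold (-1.42 ± 0.09), while Traf1 rose 1.61-fold (0.69 ± 0.06). With LPS 9 were higher and 7 lower at high salt (median 0.15), against 16.8% and 21.8% of all genes. Tnfrsf9, encoding the costimulatory receptor 4-1BB, rose 5.16-fold (2.37 ± 0.13) and Ier3, an early response gene, 2.67-fold (1.41 ± 0.10). The number lower was 4 without mouse 1 and 3 without mouse 4, and 15 were higher when the fit used the LPS groups alone. The interaction was positive in 15 of the 30 targets and negative in 2, against 10.7% and 10.4% of all genes. The number of negative ones moved between 1 and 3 over the alternatives. The interaction was 2.16 ± 0.19 for Ccl2, 1.62 ± 0.19 for Tnfrsf9, 1.52 ± 0.13 for Csf1 and 1.06 ± 0.09 for the costimulatory gene Cd80.

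Likeness of pattern was measured as the root mean square difference between the 4 group means of 2 genes, each centred on its own mean, over 9887 other genes. Tnfaip3 had few close matches: only 3 genes lay within 0.2 log2, led by the chemokine gene Cxcl2 (0.139) and the semaphorin gene Sema7a (0.143). Cxcl2 averaged 10.00 at 290 and 9.32 at 450 mOsm/L without LPS, and 12.16 and 12.56 with LPS, the same order of conditions as Tnfaip3. For the other 8 genes between 34 and 844 genes lay within 0.2. The distance was not scaled for the size of a gene's changes, so genes that change much can have fewer close matches. The group means of Tnfaip3 ran from 8.99 to 12.12. The nearest to Tnip3 were the phosphatase gene Dusp5 (0.0426) and Il18bp (0.0506), and to Nfkbiz the cytokine subunit gene Il27 (0.0865) and Gbp11 (0.0927). Nfkb2 was nearest to Adcy6 and Gch1, Rel to Rilpl1 and Arhgap28, Rela to Ilrun and Arf4 and Relb to Tmem150c and Usp12. Nfkbia was nearest to Plet1 and Plagl2 and Nfkbie to Tlk2 and Slc22a23. Within the 9 genes the closest pair was Rel and Relb (0.105), and Nfkbiz was farthest from any of the others (0.465 from Nfkb2).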

How the data were processed

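The 16 arrays carry total RNA, 1 array for each mouse and condition. The values are the authors' deposited log2 expression per probe set, made with RMA in oligo per the submitters' processing notes; the sources used here give no versions, filters or genome build. Because RMA equalises the arrays' distributions at the level of probes, it would hide most of any change common to nearly all transcripts. The medians of the deposited arrays over all probe sets still ran from 6.78 to 6.93. Of 22549 probe sets, 20646 have 1 gene symbol, 551 several and 1352 none. Probe sets above 6.83, the median over the whole table, on 4 or more arrays were retained (12097), and a gene is represented by its single-symbol probe set with the highest mean.

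The test was limma 3.58.1 (R 4.3.3), with 1 mean per group, two-sided, 12 residual and 5.53 prior degrees of freedom, and Benjamini-Hochberg adjusted p-values over 10236 genes with a threshold of 0.05. The model was tested on simulated data. The genes and lists were chosen with earlier results of these data known. All 10 genes were to be named, with up to 4 genes per list and comparison that passed with the smallest adjusted p, and the 2 genes of most similar pattern, leaving out predicted, clone-based and small RNA symbols and receptor families.

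The labels give arrays of 1 mouse the same identifier, so replicate numbers pair the groups. Deviations of same-mouse arrays correlated from -0.146 to 0.433 (median 0.0953, 24 pairs), against a median of -0.0351 for different mice. The 8 same-mouse pairs at 1 osmolarity ran from 0.0950 to 0.433, and those across osmolarities from -0.146 to 0.269. A fit paired by mouse and the other alternatives (filters, scaling, variance model, weights, samples fitted, left-out arrays) were run beside the unpaired main fit. The number of arrays limits the precision. Figures were drawn with matplotlib.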

Additional observations from a re-analysis of the deposited data

Results flagged for a closer look

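The LPS difference itself differed between the 2 osmolarities, by the interaction in the limma fit, for 2 of the 9 NF-κB genes, Tnfaip3 (1.30 log2) and Tnip3 (0.60). Among the genes named from the pathway lists it was larger at 450 mOsm/L for Ccl2 (2.16), Tnfrsf9 (1.62), Csf1 (1.52), Cd80 (1.06), Tnfrsf11a (0.80), Otud7b (0.57), Tax1bp1 (0.51), Bcl3 (0.40) and Traf6 (0.28). It was smaller at 450 mOsm/L for Irak3 (-0.54), Ikbke (-0.53), Map3k8 (-0.51), Itch (-0.49), Myd88 (-0.38) and Cd40 (-0.35). Of these, Bcl3, Traf6, Myd88 and Cd40 did not pass when certain mice or arrays were left out.

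One array stood apart from its group in 1 gene. In Tnfaip3 at 450 mOsm/L without LPS, mouse 2 read 8.90 and the other 3 mice lay between 9.02 and 9.03, so the gap was 0.952 of the whole range. It was 1 of 36 groups of 4 examined, and chance marks about 1 in 20 such groups.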

How the results depend on the processing

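Each LPS difference of the 9 NF-κB genes, and each result of Tnfaip3, kept its direction and side of the threshold in every alternative run. Over all 45 gene results, 1334 of 1386 alternative values did so, 30 newly passed, 14 no longer passed and 8 changed sign, all 8 in differences that passed in neither fit. With cyclic loess the salt difference of Rel without LPS was 0.0237 and that of Rela with LPS 0.0011. When a mouse or array was left out, that of Rel without LPS ran from -0.111 to 0.0168, that of Nfkbia without LPS from -0.0121 to 0.189 and that of Nfkbiz with LPS from -0.111 to 0.0316. Without LPS, the number of genes lower at high salt was 2; it was 5 with median centring, 5 with array weights, and between 1 and 5 when a mouse or array was left out, and the number higher was between 0 and 1. With LPS, the number higher was 2; it was 1 with no filter, 1 with median centring, and between 1 and 3 when a mouse or array was left out. The number with a larger LPS difference at 450 mOsm/L was 2, and between 1 and 3 when a mouse or array was left out. Those count changes are the calls of Nfkb2, Relb, Nfkbie, Nfkbiz, Tnip3 and Nfkbia given above. With the mouse as a replicate block the other calls of the 9 genes did not change.

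Over all genes, the number higher at high salt without LPS was 2104, and 1343 with median centring or 1346 without mouse 2. The number with a smaller LPS difference at 450 mOsm/L was 1064, and 697 without mouse 1; with a larger one it was 1097, and 658 without mouse 2. Cyclic loess moved the median LPS difference at 290 mOsm/L over all genes from -0.11 to 0.02. Of the named pathway genes' 2867 values 82 no longer passed, and 124 of 1854 list counts moved by over 1.5 times. All 9 genes had their largest SD at 290 mOsm/L without LPS under quantile normalization and cyclic loess, and 7 under median centring, chosen after seeing the data like the list alternatives. Nfkbiz without LPS lies near the filter level, which limits its fold. Whether arrays of 1 mouse and osmolarity shared a culture until day 7 is not stated in the labels.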
